A study of Ovis aries with 15 samples.

Results

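The insulin-like growth factor (IGF) axis was followed in the kidney cortex of fetal sheep through every probe of an ovine Agilent array whose gene name begins with IGF, older spellings included. The rule gave 19 probes for 10 genes, among 15008 probes without controls, of which 1592 carry a gene name. The genes are the growth factors IGF1 (1 probe) and IGF2 (2 probes), the receptors IGF1R and IGF2R (2 probes each), and the binding proteins IGFBP1 (3 probes), IGFBP2, IGFBP4, IGFBP5 and IGFBP6 (2 probes each) and IGFBP3 (1 probe). All 19 passed the filter on dim probes, which asked for a signal well above background on at least 3 of the 15 arrays. Another 2 receptor probes, listed under other names, are given beside their genes and are not counted.

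Kidney cortex RNA of 15 fetuses was hybridised in a single colour, 1 array per fetus. There were 4 arrays of hypoxia after ketamine, 4 of normoxia after ketamine, 4 of hypoxia after vehicle and 3 of normoxia after vehicle. All fetuses carried chronic catheters, were studied at 125 ± 3 days of gestation and had been assigned to a group at random at surgery, and hypoxia meant that the ewe breathed gas low in oxygen for 30 min. Ketamine, a blocker of NMDA-type glutamate receptors, was given into the fetal circulation at 3 mg/kg, 10 min before the hypoxic period, and the vehicle was saline. Kidneys were taken 24 h after the hypoxic or normoxic period began, so every value describes recovery and none describes the hypoxic period itself. The arrays measure whole cortex, in which fewer cells of a type and less RNA per cell cannot be told apart.

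IGF1 and IGF2 are secreted growth factors of fetal tissues, and both signal through IGF1R, a receptor tyrosine kinase related to the insulin receptor. IGF2R, the mannose 6-phosphate receptor, takes IGF2 into the cell for breakdown. The binding proteins hold the growth factors in plasma and around cells and release or withhold them from the receptor. IGFBP1 is best known as a binding protein of liver, decidua and kidney whose gene is switched on by fasting, glucocorticoid, cell stress and low oxygen, while IGFBP5 is made by mesenchymal and other cells and binds to matrix.

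The probes that carry the main results are 60 bases long. The first 3 below are the only IGF1 probe, the IGFBP1 probe that shares no stretch with the other IGFBP1 probes, and the IGF2 probe that differed between groups. They start at bases 520, 369 and 583 of the ovine mRNAs named in the array's annotation. The last 2 are the IGFBP5 pair, whose probes overlap by 59 bases, and capitals mark the base that the other probe does not cover.
IGF1, probe A_70_P051091: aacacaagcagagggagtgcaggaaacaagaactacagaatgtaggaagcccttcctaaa
IGFBP1, probe A_70_P069081: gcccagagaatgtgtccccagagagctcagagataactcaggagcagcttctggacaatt
IGF2, probe A_70_P016796: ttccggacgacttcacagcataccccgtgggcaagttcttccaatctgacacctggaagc
IGFBP5, probe A_70_P041812: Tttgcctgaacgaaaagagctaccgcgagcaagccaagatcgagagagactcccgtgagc
IGFBP5, probe A_70_P041811: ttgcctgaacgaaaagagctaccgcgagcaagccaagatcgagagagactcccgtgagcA

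Levels are given as scaled signal, the background-subtracted intensity of a probe after each array was brought to the same 75th percentile of 1241.5, and the level of one probe is not set against that of another. Before scaling, that percentile ran from 1071 to 1456 over the arrays. The share of probes well above background was 75.7% in hypoxia ketamine replicate 4 and at least 81.0% elsewhere. Kidney markers checked the tissue label: SLC34A1, AQP2 and WT1 were well above background on all 15 arrays, and the adrenal genes CYP11A1, CYP11B1 and MC2R on 0, while the steroid enzyme CYP17A1 was on all 15. The arrays came on 2 slides of 8 and 7 arrays, each slide holding 2 arrays of every group except that slide 2 held 1 of normoxia vehicle. Values within slide 2 that use that lone array rest on it, and their test assumes that it varies like the other groups. Placental lactogen (CSH1) was above background on 3 arrays, at 17.0 in hypoxia ketamine replicate 2 and at 158 and 124 in normoxia ketamine replicates 1 and 2, and stayed at or below 5.15 elsewhere. Hypoxia ketamine replicate 2 and hypoxia vehicle replicate 4 stood apart from their groups in inflammatory genes in earlier results of these data, and results that rest on these arrays are given with and without them.

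A day after hypoxia, fetal kidney cortex held less IGF1 RNA and, in most fetuses, far more IGFBP1 RNA than after normoxia, with and without ketamine. IGF2, the receptors and the other binding proteins did not pass the test in either arm. A gene was called where limma's p, before adjustment, was 0.05 or lower for its probe of highest mean signal, as the study set its own threshold. The adjusted p-values given below are limma's after Benjamini-Hochberg adjustment over all tested probes, and a difference said to pass or to be called met the unadjusted threshold. In ketamine-treated fetuses 1 of the 10 genes rose and 1 fell, where 8.70% of all 12925 tested probes were called (457 or 3.54% rose and 668 or 5.17% fell). In vehicle-treated fetuses 1 rose and 1 fell, where 16.0% of tested probes were called (761 or 5.89% rose and 1304 or 10.1% fell). The share of IGF genes called, 2 of 10 in each arm, was near that of all probes in the vehicle arm. After Benjamini-Hochberg adjustment 0.0155% of tested probes passed in the vehicle arm and 0 in the ketamine arm, none of them an IGF probe. With the mean of both arms, 1 rose and 2 fell, the added gene being IGFBP5, and 20.3% of tested probes were called. Over the 10 genes the median log2 difference between hypoxia and normoxia, averaged over both arms, was 0.01, against -0.04 over all tested probes. Without the 3 arrays that held placental lactogen, 1 gene (IGF1) was called in the ketamine arm, where 439 of 12925 tested probes rose and 374 fell.

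**Figure D1:**
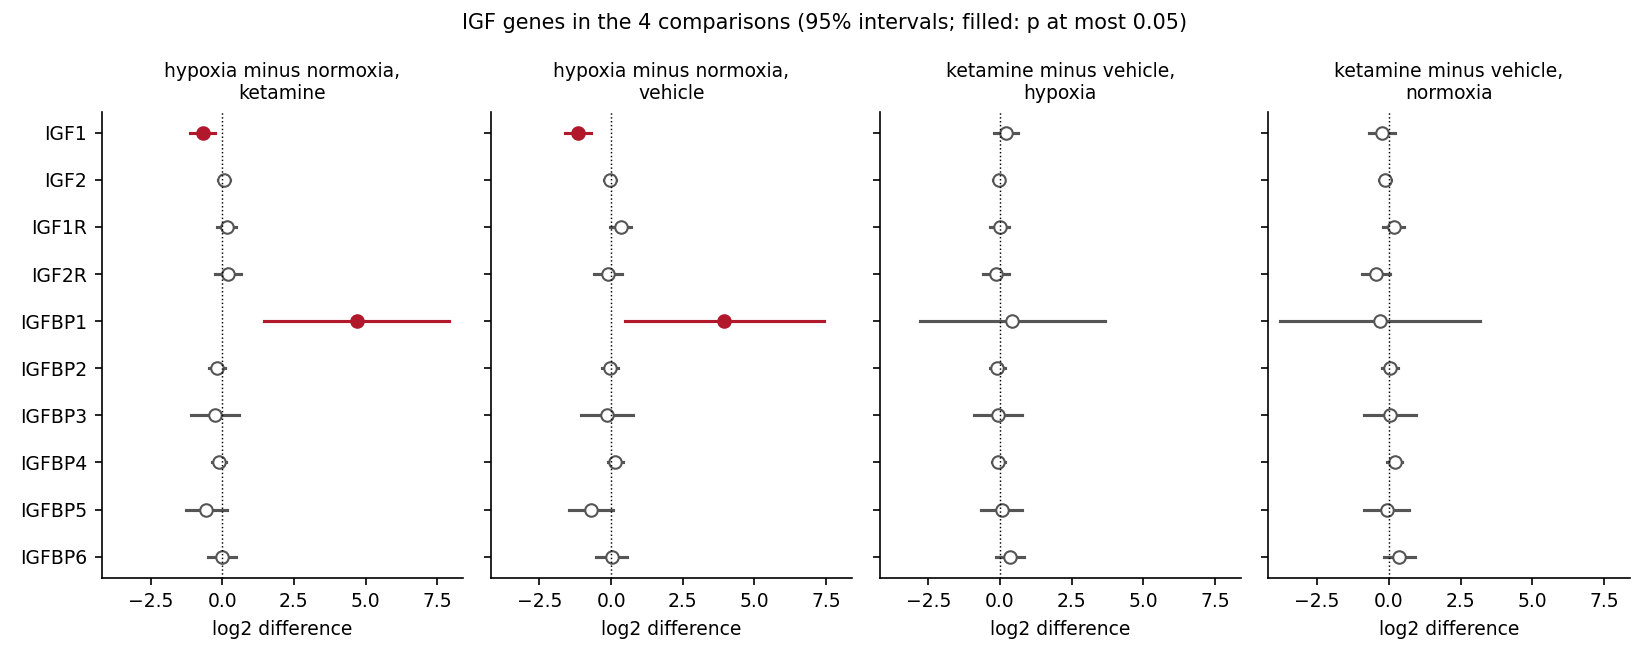
Log2 difference of each IGF gene (rows) in 4 comparisons (panels), with its 95% interval from limma; filled points have a limma p of 0.05 or lower before adjustment. IGF1 and IGFBP1 are filled in both hypoxia panels, no gene is filled in either ketamine panel, and the intervals of IGFBP1 are the widest of the 10 genes.

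IGF1 was lower on every hypoxic array than on any normoxic one. In ketamine-treated fetuses its scaled signal was 59.5, 84.1, 88.6 and 83.0 after hypoxia, against 162, 114, 117 and 114 after normoxia. In vehicle-treated fetuses it was 78.3, 79.8, 54.3 and 60.6 after hypoxia, against 149, 114 and 194 after normoxia. The highest hypoxic array, at 88.6, lay below the lowest normoxic array, at 114, so the groups did not overlap within either arm or over both arms together. How many of all tested probes have groups that do not overlap was not counted, so this and later separations are given as a description. The probe was well above background on all 15 arrays.

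IGF1 averaged 78.8 ± 13.1 after hypoxia and 127 ± 23.2 after normoxia in ketamine-treated fetuses (SD, n = 4 each), a log2 difference of -0.69 (SE 0.20, adjusted p = 0.329 by limma), or 1.61-fold lower. In vehicle-treated fetuses it averaged 68.25 ± 12.7 after hypoxia (SD, n = 4) and 152 ± 40.2 after normoxia (SD, n = 3), a log2 difference of -1.15 (SE 0.21, adjusted p = 0.0822), or 2.21-fold lower. The mean of both arms was -0.92 (95% interval -1.23 to -0.60). IGF1 alone among the 10 genes had a Benjamini-Hochberg adjusted p under the threshold, 0.0122 over all tested probes for the mean of both arms by limma, where 1.63% of tested probes passed that adjustment. A two-sided exact permutation test, which borrows no spread from other probes, gave p = 0.0286 in the ketamine arm, p = 0.0286 in the vehicle arm and p = 4.08e-04 with labels exchanged within each arm. All 3 are the smallest values that these two-sided permutations allow.

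The hypoxia difference of IGF1 was smaller in ketamine-treated than in vehicle-treated fetuses by 0.46 on the log2 scale, and the test of that difference did not pass (95% interval -0.167 to 1.085, adjusted p = 0.992 by limma). Ketamine against vehicle gave a log2 difference of 0.21 after hypoxia (95% interval -0.215 to 0.635) and -0.25 after normoxia (95% interval -0.71 to 0.21), with overlapping groups in both. Within slide 1 the hypoxia difference was -0.70 in the ketamine arm and -0.91 in the vehicle arm, and within slide 2 it was -0.67, which did not pass, and -1.58. Another background correction, normexp, gave -0.25 in the ketamine arm (exact permutation p = 0.429), which did not pass, and it also moved the median of all tested probes to 0.08 from -0.03 and the split of calls to 473 risen and 299 fallen. It gave -0.75 in the vehicle arm, which passed, and -0.50 for the mean of both arms (exact permutation p = 0.01265). For the mean of both arms, 0 tested probes passed the Benjamini-Hochberg adjustment within slide 1, so IGF1 did not pass it there. Without the 3 arrays that held placental lactogen the ketamine arm gave -0.61, which passed, and the adjusted p of the mean of both arms was 0.0957 by limma, against 0.0322 without the 2 arrays that stood apart.

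**Figure D2:**
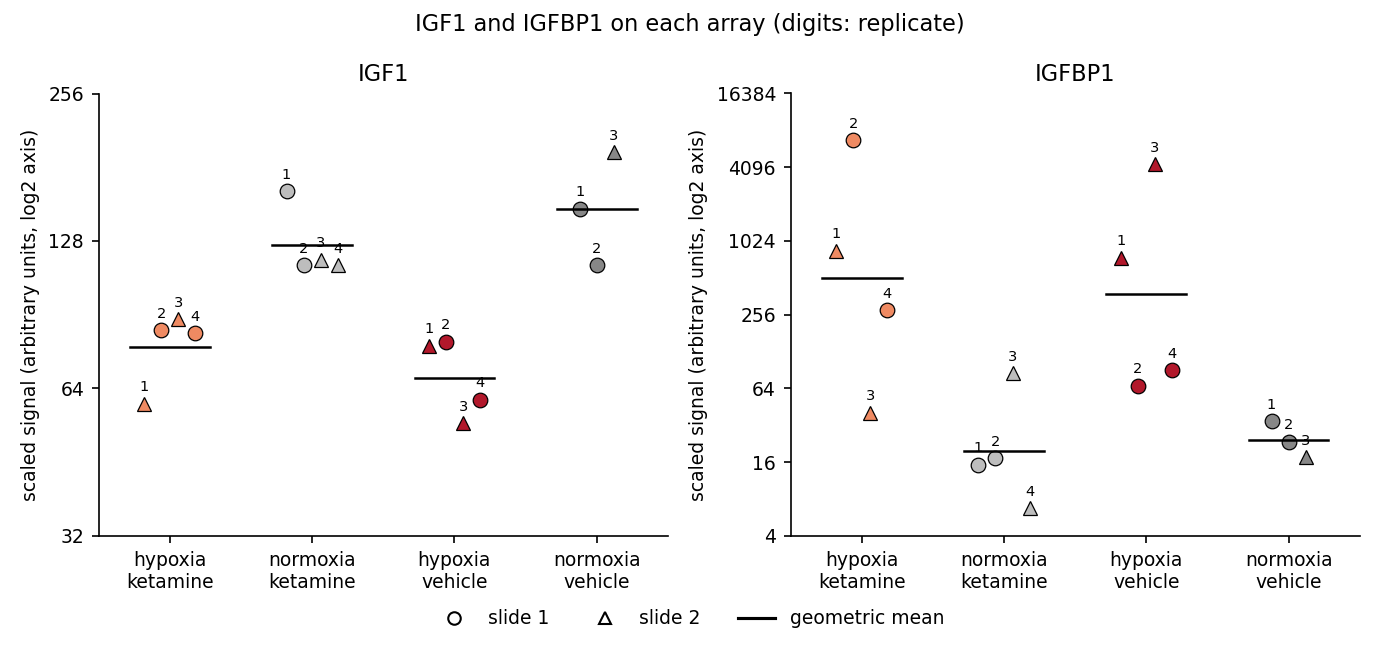
Scaled signal of IGF1 (left) and IGFBP1 (right) on each of the 15 arrays, on log2 axes that differ between the panels; bars are group geometric means, shapes mark the slide and digits the replicate. IGF1 lies between 54.3 and 88.6 on the hypoxic arrays and at 114 or more on the normoxic ones, whereas IGFBP1 runs from 40.7 to 6832 over the hypoxic arrays.

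IGFBP1, the stress- and fasting-induced binding protein, was many times higher after hypoxia on most arrays. Between hypoxic fetuses, and also between ketamine-treated normoxic ones, it varied more than almost any other probe. In ketamine-treated fetuses its scaled signal was 848, 6832, 40.7 and 279 after hypoxia, against 15.3, 17.2, 85.5 and 6.72 after normoxia. In vehicle-treated fetuses it was 748, 67.6, 4330 and 90.4 after hypoxia, against 34.5, 23.4 and 17.6 after normoxia. The vehicle groups did not overlap. In the ketamine arm hypoxia replicate 3, at 40.7, lay below normoxia replicate 3, at 85.5, and the other 3 hypoxic arrays lay above all 4 normoxic ones. The highest hypoxic array was 168 times the lowest in the ketamine arm and 64.1 times in the vehicle arm, whereas the ratio was 12.7 among ketamine-treated and 1.97 among vehicle-treated normoxic fetuses. Normoxia ketamine replicate 4, at 6.72, was the only array not well above background on this probe, which limits the fold change in that arm.

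The log2 difference between hypoxia and normoxia was 4.68 in ketamine-treated fetuses (95% interval 1.46 to 7.91, adjusted p = 0.372 by limma), a ratio of geometric means of 25.7. In vehicle-treated fetuses it was 3.95 (95% interval 0.47 to 7.44, adjusted p = 0.264), a ratio of 15.5. The mean of both arms was 4.32 (95% interval 1.94 to 6.69, adjusted p = 0.0610 by limma). The exact permutation test gave p = 0.0571 in the ketamine arm, p = 0.0857 in the vehicle arm and p = 0.00286 over both arms. Ketamine against vehicle gave 0.43 after hypoxia (95% interval -2.79 to 3.66) and -0.30 after normoxia (95% interval -3.78 to 3.19), so these arrays leave room for differences of many fold in either direction. Within groups the SD of the log2 signal of IGFBP1 was 3.09 in hypoxia ketamine and 2.82 in hypoxia vehicle, larger than that of 99.9% and 99.7% of tested probes in those groups. It was 1.535 in normoxia ketamine and 0.49 in normoxia vehicle, still larger than that of 99.3% and 91.3% of tested probes there.

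The other IGFBP1 probes had the same 5 hypoxic arrays highest, in the same order, and differed in the order of the lower arrays. One of them, A_70_P016366, overlaps the first by 59 bases and gave log2 differences of 5.37 in the ketamine arm and 3.87 in the vehicle arm. The other, A_70_P069081, whose sequence is printed above, shares no stretch with A_70_P016366 and gave 3.79 and 3.33, and both probes passed in both arms. Over the 15 arrays the 3 probes correlated at r = 0.98 to 0.99, as readings of the same arrays. A_70_P069081 was well above background on all 8 hypoxic arrays, on 1 of 4 normoxia ketamine arrays and on 2 of 3 normoxia vehicle arrays, so its normoxic levels lie near the limit of measurement. On both other probes normoxia ketamine replicate 3 lay above hypoxia vehicle replicate 4, and on A_70_P069081 hypoxia ketamine replicate 3 lay below normoxia vehicle replicates 1 and 2. Its signal was 259, 2206, 14.3 and 90.3 in hypoxia ketamine, against 8.19, 8.57, 41.6 and 6.93 in normoxia ketamine. It was 229, 29.9, 1044 and 38.6 in hypoxia vehicle, against 17.0, 14.7 and 8.43 in normoxia vehicle.

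The vehicle call of IGFBP1 was lost without hypoxia replicate 1 or 3 (log2 difference 3.62 and 2.78) or without normoxia replicate 2 or 3 (3.93 and 3.72), and with normexp (2.46). In the ketamine arm normexp gave 3.31, which passed. By slide, the ketamine arm gave 6.41 within slide 1 and 2.95, which did not pass, within slide 2, while the vehicle arm gave 1.46, which did not pass, and 6.68, the last from 2 arrays against 1. Ketamine against vehicle after hypoxia was 4.14 within slide 1, which passed, and -3.28 within slide 2, which did not, so its direction turned between the slides. Without the 3 arrays that held placental lactogen, hypoxia ketamine replicate 2 among them, the ketamine arm gave 3.15, which did not pass, and the mean of both arms 3.55, which did. Without the 2 arrays that stood apart, the mean of both arms was 4.03, which passed.

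IGFBP5, the matrix-bound binding protein, was lower after hypoxia on part of the arrays. Probe A_70_P041812 read 998, 1269, 2318 and 2345 in hypoxia ketamine, against 2740, 1941, 2698 and 2246 in normoxia ketamine. It read 1788, 2911, 1058 and 1073 in hypoxia vehicle, against 2357, 2653 and 2559 in normoxia vehicle. Replicates 1 and 2 of hypoxia ketamine and replicates 1, 3 and 4 of hypoxia vehicle lay below every normoxic array, and the remaining 3 hypoxic arrays lay among or above the normoxic ones. The log2 difference was -0.56 in the ketamine arm (adjusted p = 0.699) and -0.69 in the vehicle arm (adjusted p = 0.356), and the mean of both arms passed the threshold at -0.63 (95% interval -1.15 to -0.10, adjusted p = 0.176 by limma). The SD of the log2 signal was 0.62 in hypoxia ketamine and 0.70 in hypoxia vehicle, against 0.24 in normoxia ketamine and 0.09 in normoxia vehicle.

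The call of IGFBP5 over both arms was lost within slide 1 (-0.46) and within slide 2 (-0.80). It was also lost without the 2 arrays that stood apart (-0.48) and without the 3 that held placental lactogen (-0.59). The overlapping probe A_70_P041811 matched it within 0.15 on the log2 scale on 14 arrays and read 18.6 in normoxia ketamine replicate 2, where A_70_P041812 read 1941. That reading differed from its twin by -6.703 on the log2 scale, and the spot carried no outlier flag of the scanner software. With the mean of both probes the difference over both arms was -0.22, which did not pass, and in the ketamine arm alone it was 0.28.

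**Figure D3:**
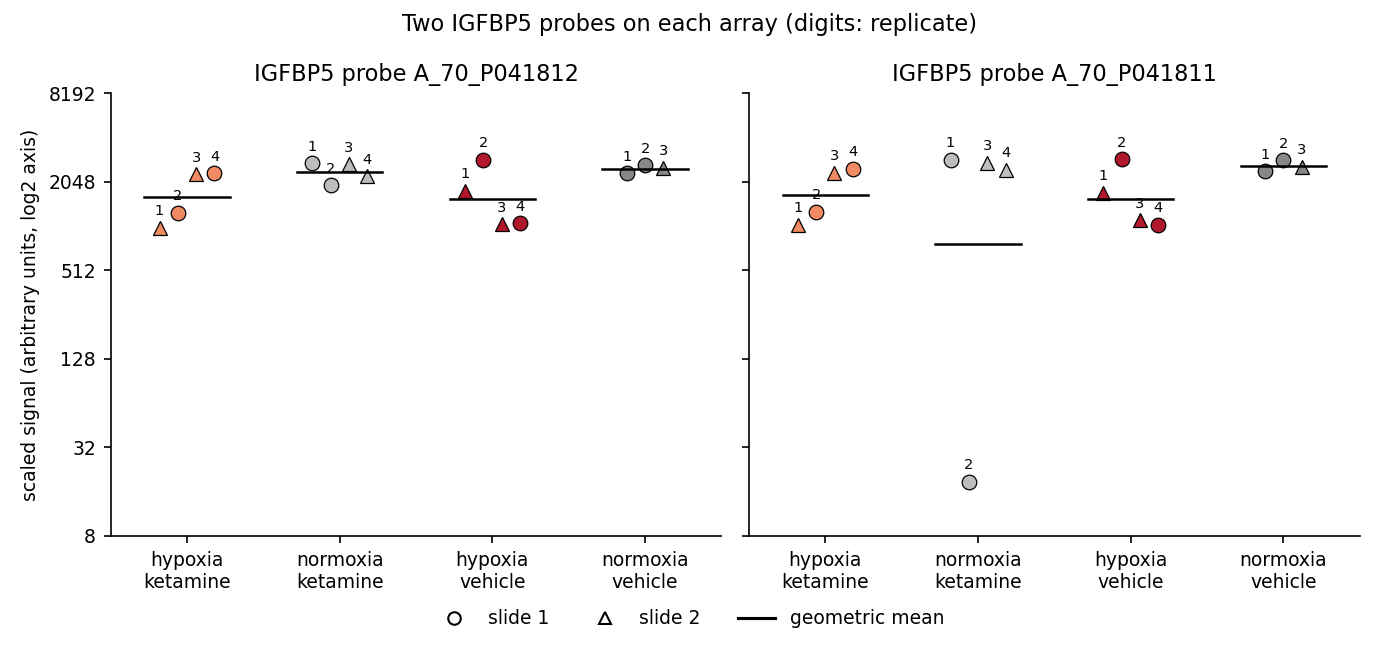
Scaled signal of the overlapping IGFBP5 probes A_70_P041812 (left) and A_70_P041811 (right) on each array, on a shared log2 axis; bars are group geometric means, shapes mark the slide and digits the replicate. The probes read alike on 14 arrays, and normoxia ketamine replicate 2 reads 1941 on the left and 18.6 on the right.

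IGF2, the main growth factor of fetal life, was bright on every array and did not differ after hypoxia in its probe of highest signal. Probe A_70_P029956 ran from 200582 to 233748 in hypoxia ketamine, against 198560 to 212136 in normoxia ketamine (3 arrays, as the spot of replicate 1 was left out as an outlier). It ran from 204157 to 229345 in hypoxia vehicle, against 218414 to 235091 in normoxia vehicle. The log2 difference over both arms was 0.00 (95% interval -0.15 to 0.15), and no spot was saturated. 

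The second IGF2 probe, A_70_P016796, printed above, gave another picture. It read 27120, 34082, 34733 and 31669 in hypoxia ketamine, against 31149, 17529, 30448 and 26646 in normoxia ketamine. In vehicle-treated fetuses it read 33427, 34570, 34415 and 27617 after hypoxia, against 37202, 51790 and 33320 after normoxia. Among normoxic fetuses every ketamine array lay below every vehicle array, a log2 difference of -0.63 (95% interval -1.07 to -0.20, adjusted p = 0.9998 by limma), where 2.71% of all tested probes were called, 0.975% risen and 1.73% fallen. Among hypoxic fetuses the ketamine difference was -0.03 (95% interval -0.43 to 0.38). The hypoxia difference was 0.30 with ketamine and -0.31 with vehicle, and the interaction, 0.61, passed the threshold (95% interval 0.009 to 1.204, adjusted p = 0.992), where 3.09% of all tested probes were called, 1.91% upward and 1.18% downward. The interaction no longer passed without the 3 arrays that held placental lactogen (0.43), without the 2 that stood apart (0.50), with normexp (0.56), with slide as a block (0.61), with the replicate block (0.59), with array weights (0.61) or within slide 1 (0.998) or slide 2 (0.08, with 1 normoxia vehicle array). It was also lost on leaving out any 1 of 11 arrays, down to 0.42 without normoxia ketamine replicate 2 or normoxia vehicle replicate 2. The ketamine difference after normoxia was lost without normoxia vehicle replicate 2 (-0.45) and within slide 2 (-0.23, against 1 vehicle array). The 2 IGF2 probes share no stretch of sequence beyond 1 base and correlated at r = 0.46 over the 14 arrays that measured both. The brighter probe gave -0.14 for ketamine against vehicle after normoxia (95% interval -0.36 to 0.08). Its groups did not overlap there either, but it was not called.

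The receptors did not pass the test in their representative probes. IGF1R, through which both growth factors signal, ran from 1568 to 1977 in hypoxia ketamine, against 1315 to 2031 in normoxia ketamine. It ran from 1633 to 1944 in hypoxia vehicle, against 1128 to 1615 in normoxia vehicle, 2 groups that did not overlap. The log2 difference was 0.15 in the ketamine arm (95% interval -0.18 to 0.48) and 0.33 in the vehicle arm (95% interval -0.03 to 0.68), and the mean of both arms, 0.24, just missed the threshold (95% interval -0.002 to 0.48). It passed with slide as a block (0.25) and without the 3 arrays that held placental lactogen (0.29). The second IGF1R probe, named IGFR1 on the array, gave -0.13 over both arms (95% interval -0.39 to 0.13) and correlated with the first at r = 0.30, so the probes disagreed in sign. The uncounted probe described as the same receptor gave 0.12 (95% interval -0.08 to 0.32).

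IGF2R ran from 1959 to 2680 in hypoxia ketamine, against 1498 to 2652 in normoxia ketamine, and from 2241 to 3346 in hypoxia vehicle, against 2389 to 3825 in normoxia vehicle. Its log2 difference over both arms was 0.05 (95% interval -0.28 to 0.38). Among normoxic fetuses ketamine against vehicle gave -0.44 (95% interval -0.92 to 0.05), with overlapping groups. The overlapping second probe gave -0.45, and the probe named M6P/IGF2R, which shares no stretch with them, gave -0.29. The difference passed with slide as a block (-0.49) and within slide 1 (-0.80), and was 0.01 within slide 2 and -0.16 without the 3 arrays that held placental lactogen.

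The other 4 binding proteins, IGFBP2, IGFBP3, IGFBP4 and IGFBP6, were not called in any of the comparisons. IGFBP2, a binding protein abundant in fetal tissue, ran from 204861 to 215884 in hypoxia ketamine (3 arrays), against 223221 to 265292 in normoxia ketamine (3 arrays). It ran from 197559 to 242486 in hypoxia vehicle (3 arrays), against 218128 to 240826 in normoxia vehicle (3 arrays). The ketamine groups did not overlap, yet the log2 difference there was -0.18 (95% interval -0.45 to 0.10), and 0.00 on the second probe, measured on 12 arrays as well. IGFBP3, the main carrier in plasma after birth, ran from 180 to 352 in hypoxia ketamine, against 204 to 472 in normoxia ketamine. In vehicle-treated fetuses it ran from 186 to 584 after hypoxia, against 227 to 439 after normoxia, and its log2 difference over both arms was -0.20 (95% interval -0.82 to 0.41).

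IGFBP4, known mainly as an inhibitor of IGF action, was steady: its lowest and highest arrays were 50452 and 69375, and the difference over both arms was 0.02 (95% interval -0.15 to 0.20). IGFBP6, which prefers IGF2, ran from 9056 to 10932 in hypoxia ketamine, against 6674 to 14559 in normoxia ketamine, 6216 to 10973 in hypoxia vehicle and 6925 to 8587 in normoxia vehicle. Its difference over both arms was 0.01 (95% interval -0.36 to 0.37). Ketamine against vehicle gave 0.34 after hypoxia (95% interval -0.16 to 0.83) and 0.37 after normoxia (95% interval -0.17 to 0.90). In the sheep RefSeq annotation IGFBP1 lies next to IGFBP3, IGFBP2 next to IGFBP5, and IGF2 next to the insulin gene INS. In neither binding protein pair were both members called in the same direction.

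Ketamine against vehicle called 0 of the 10 genes after hypoxia, where 6.03% of all tested probes were called (2.38% risen and 3.66% fallen), and 0 after normoxia, where 2.71% were, all by limma before adjustment. The interaction called 0 of 10 in the representative probes, and 1 of 19 probes, the IGF2 probe described above. For the representative probes of genes other than IGFBP1, the 95% intervals of both ketamine differences stayed within -0.92 to 0.94 on the log2 scale.

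Few genes that act on IGF signalling were on the array. Of 39 genes listed for signalling below the IGF receptors, 2 were present and tested, the insulin receptor INSR and the kinase AKT1, and neither passed in any comparison. AKT1 gave -0.16 over both arms (adjusted p = 0.466) and INSR -0.06 (adjusted p = 0.844). Of 27 genes listed for growth hormone input and for IGFBP processing, 11 were on the array, 8 were tested and 0 passed in any of the 6 comparisons. Of all tested probes, 2.71% to 20.3% were called in those comparisons. The growth hormone receptor GHR, through which growth hormone raises IGF1 in liver, came nearest, at -0.52 over both arms (SE 0.24, adjusted p = 0.246). GHR read 727, 720, 880 and 589 in hypoxia ketamine, against 659, 1207, 1535 and 635 in normoxia ketamine. It read 1172, 833, 880 and 395 in hypoxia vehicle, against 1226, 1100 and 1301 in normoxia vehicle. PAPPA, the protease that cuts IGFBP4 and IGFBP5, gave 0.32 over both arms (adjusted p = 0.658), and STAT5A, a growth hormone signal transducer, 0.13 (adjusted p = 0.662).

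Among 13 genes listed as regulators of IGFBP1, 9 were tested; over both arms 2 rose and 2 fell, where 7.80% of tested probes rose and 12.5% fell. CEBPB, a stress- and inflammation-responsive transcription factor, rose by 1.97 on the log2 scale (SE 0.52, adjusted p = 0.0657), and ATF4, the effector of the integrated stress response, rose by 0.52 (SE 0.16, adjusted p = 0.0974), a call lost within slide 2 (0.37). The glucocorticoid receptor NR3C1 was among those that fell, at -0.40 (adjusted p = 0.102). With normexp it gave -0.20, which did not pass, and it did not pass within slide 1, within slide 2 or without the 3 arrays that held placental lactogen (-0.31). By arm, 0 regulators rose and 2 fell in the ketamine arm, where 3.54% of tested probes rose and 5.17% fell. In the vehicle arm 2 rose and 1 fell, where 5.89% of tested probes rose and 10.1% fell. CEBPB read 180, 456, 57.5 and 82.9 in hypoxia ketamine, against 48.6, 59.6, 55.7 and 61.5 in normoxia ketamine. It read 795, 99.8, 230 and 1036 in hypoxia vehicle, against 48.9, 80.4 and 57.5 in normoxia vehicle. Hypoxia vehicle replicate 4 had the most CEBPB, 1036, with 90.4 of IGFBP1, and the next 4 arrays in CEBPB were the 4 highest in IGFBP1. HIF1A, the oxygen-regulated subunit, gave 0.32 (adjusted p = 0.536) and the related EPAS1 0.25 (adjusted p = 0.428). Without the 3 arrays that held placental lactogen, 3 regulators rose and 1 fell over both arms, where 765 of 12925 tested probes rose and 982 fell. Without the 2 that stood apart, 2 regulators rose and 3 fell, where 965 of 12925 tested probes rose and 1303 fell.

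Of 20 genes listed as targets of hypoxia-inducible factors, 7 were tested, and they were called in the vehicle arm alone, although few of the differences between the arms passed a test. In vehicle-treated fetuses 4 rose after hypoxia, where 5.89% of tested probes rose: the glucose transporters SLC2A3 (2.01) and SLC2A1 (0.95) and the glycolytic enzymes LDHA (1.27) and ALDOA (0.49, all log2 differences). Within slide 1 the vehicle-arm calls of SLC2A1 (0.45), LDHA (1.02) and ALDOA (0.48) were lost. ALDOA also lost its call without normoxia vehicle replicate 1 (0.405), and gave 0.48 within slide 2, against 1 normoxia array. In ketamine-treated fetuses 0 rose, where 3.54% did, with log2 differences of 0.46 for SLC2A1 (adjusted p = 0.658) and 0.41 for SLC2A3 (adjusted p = 0.860). Of the 7, the interaction passed for SLC2A3 alone (-1.60, adjusted p = 0.992 by limma), and it was lost within either slide and without any of 4 single arrays. Among hypoxic fetuses 4 of the 7 were lower with ketamine than with vehicle: SLC2A3 (-1.48), VEGFA (-0.69), SLC2A1 (-0.61) and the hexokinase HK1 (-0.57), where 3.66% of tested probes fell. Within slide 1 none of the 4 passed, at -0.70, -0.15, 0.03 and -0.36 in the same order, and SLC2A1, VEGFA and HK1 each lost the call without hypoxia vehicle replicate 1 (-0.50, -0.43 and -0.39). SLC2A1 and VEGFA also lost it without hypoxia vehicle replicate 3 (-0.43 and -0.54), SLC2A1 without hypoxia ketamine replicate 3 (-0.41) and VEGFA without hypoxia ketamine replicate 4 (-0.63). IGF1 and IGFBP1 were called in both arms, and their own interactions did not pass.

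Markers of other cell types moved with hypoxia too. Of 15 stromal markers listed, 6 were tested; 2 fell in the ketamine arm and 4 in the vehicle arm, where 5.17% and 10.1% of tested probes fell. The collagen COL3A1 fell in both (-0.49 and -0.56). Without the 3 arrays that held placental lactogen, 1 fell in the ketamine arm and 4 in the vehicle arm, where 374 and 1269 of 12925 tested probes fell. The same counts held without the 2 arrays that stood apart, where 825 and 1150 of 12925 fell. The summed scaled signal of the 6 ran from 120835 to 161321 in hypoxia ketamine, against 108704 to 146168 in normoxia ketamine, and from 118725 to 140626 in hypoxia vehicle, against 116678 to 127601 in normoxia vehicle. That sum rests mainly on VIM and DCN, at 115146.5 and 44836.9 in hypoxia ketamine replicate 4, and hardly shows the dimmer markers. The mean log2 signal of the 6 ran from 0.267 to 0.749 in hypoxia ketamine, against 0.579 to 0.888 in normoxia ketamine. With vehicle it ran from 0.214 to 0.485 after hypoxia, against 0.781 to 0.932 after normoxia. All 6 were well above background on 15 arrays. Of 14 myeloid markers listed, 8 were tested, and 4 rose in the ketamine arm and 5 in the vehicle arm, where 3.54% and 5.89% of tested probes rose. Without the 3 arrays that held placental lactogen 0 rose in the ketamine arm and 5 in the vehicle arm, where 439 and 774 of 12925 tested probes rose. Without the 2 that stood apart 3 and 5 rose, where 563 and 765 of 12925 did. Within slide 2 none of the 4 ketamine-arm calls passed. Their summed signal ran from 1770 to 5414 in hypoxia ketamine, against 1169 to 1515 in normoxia ketamine, and from 1740 to 5360 in hypoxia vehicle, against 1219 to 1370 in normoxia vehicle. Of 16 liver markers listed, 8 were tested and 0 passed between hypoxia and normoxia in either arm. Of all tested probes, 8.70% were called in the ketamine arm and 16.0% in the vehicle arm. Albumin was well above background on at most 3 arrays and CYP3A24 on 10. The liver-list genes APOA1, TTR, SERPINA1, TF, AHSG and PCK1 were well above background on all 15. The part of stromal or myeloid cells in the levels of IGF1, IGFBP1 and IGFBP5 was not tested.

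The named genes whose log2 signal followed IGF1 most closely over the 15 arrays were SLC9A3R1, a scaffold protein of the tubular brush border (Pearson r = 0.86), the amino acid transporter SLC7A8 (0.84), the chloride channel listed as CLC5 (0.82), the netrin NTN4 (0.81) and the endothelial receptor KDR (0.77). After each group's mean was removed, these correlations were 0.60, 0.64, 0.66, 0.37 and 0.53. The most opposite was RABGGTB, a subunit of an enzyme that attaches lipid to Rab proteins (r = -0.88, and -0.64 within groups). All of these points share the array and the scaling, and part of each correlation is the difference between the groups.

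IGFBP1 followed the glucose transporter SLC2A1 (r = 0.84, and 0.89 within groups), the peptide transporter SLC15A1 (0.86), the gene listed as MPER1 (0.88), the vitamin B6 kinase PDXK (0.83) and the prostaglandin synthase listed as PGFS (0.83). SLC2A1 read 877, 998, 494 and 774 in hypoxia ketamine, against 578, 611, 561 and 474 in normoxia ketamine. It read 1463, 776, 1693 and 953 in hypoxia vehicle, against 599, 662 and 557 in normoxia vehicle. Hypoxia ketamine replicate 3, the hypoxic array with the least IGFBP1, also had the least SLC2A1 of the hypoxic arrays. The genes that ran most opposite to IGFBP1 were NTN4 (-0.88), the collagen COL1A2 (-0.84) and the transcription factor SNAI1 (-0.83).

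**Figure D4:**
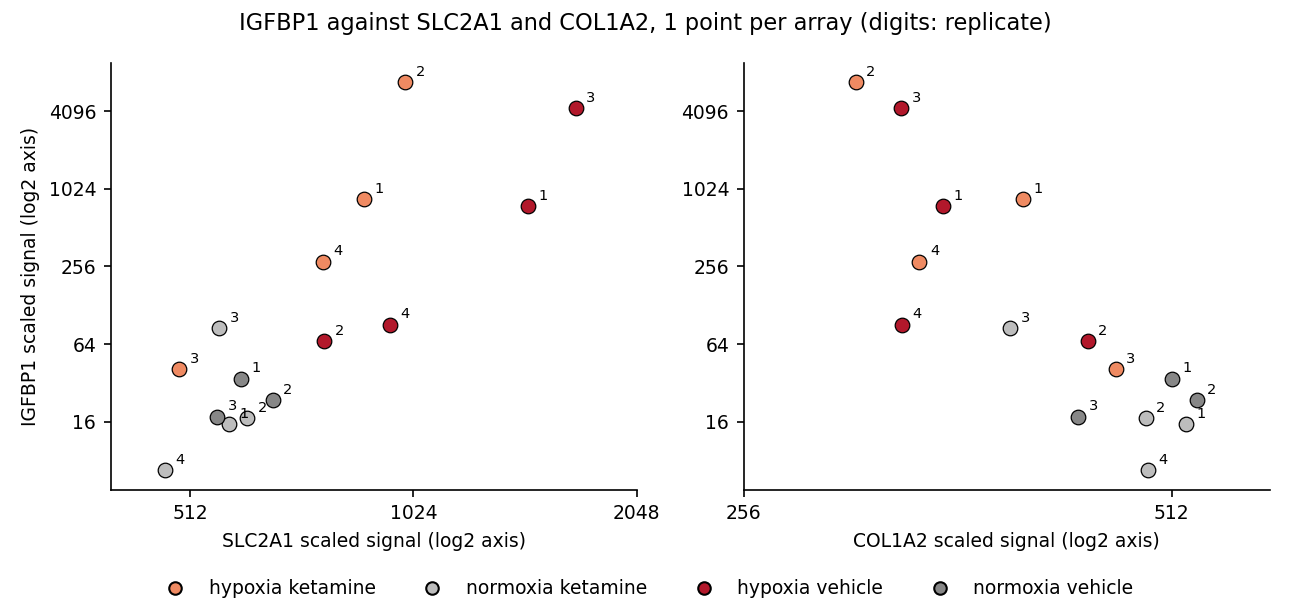
Scaled signal of IGFBP1 against that of SLC2A1 (left, r = 0.84) and COL1A2 (right, r = -0.84) on log2 axes, 1 point per array, coloured by group, digits marking the replicate. Hypoxia ketamine replicate 2, with 6832 of IGFBP1, has 998 of SLC2A1 and the lowest COL1A2, 307.

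Among the IGF genes themselves, IGF1 and IGFBP5 varied together (r = 0.75 over 15 arrays, and 0.62 after each group's mean was removed). IGF1 and IGFBP1 ran opposite to each other (r = -0.70), mostly through the group means, as the correlation within groups was -0.28. IGFBP1 and IGFBP5 gave -0.70, and -0.51 within groups. IGF1 and the representative IGF1R probe gave -0.18 over the arrays and 0.81 within groups. Within groups, fetuses with more IGF1 had more signal on that probe, while between groups IGF1 was lower and IGF1R was not called after hypoxia. The second IGF1R probe, which correlated with the first at r = 0.30, was not set against IGF1. These correlations share arrays and scaling and are given as a description.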

How the data were processed

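Per the file headers, the intensity values were read with Agilent Feature Extraction 10.1.1.1, which detrended each array and subtracted its background; nothing was pooled, and each array is a separate fetus. The deposited value table holds log2 values of 11705 probes with column medians from 8.977 to 8.994; how the authors scaled it is not given in the sources used here. In 12 of its 15 columns the values followed another array of the same group more closely (r = 0.909 to 0.976), so it served only as an alternative. The submitters' processing notes name limma.

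Here, spots flagged as outliers were dropped, spots of a probe were averaged, and log2 signal was set relative to each array's 75th percentile. Of 15008 probes, 12925 were well above background on at least 3 arrays. They were fitted with limma 3.58.1 (R 4.3.3), 1 mean per group over all 15 arrays, for 6 comparisons, with Benjamini-Hochberg adjustment over all of them; probes that lack an array were fitted on the rest. The number of arrays limits the precision. IGF1 and IGFBP1 were also tested by exact permutation (Python 3.11.15, scipy 1.17.1). The fit was tested on simulated data.

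A gene is represented by its probe of highest mean signal. From each gene list, the 4 members with the smallest p in a comparison could be named. So could the 5 named genes most like and 3 most unlike IGF1 and IGFBP1 by Pearson correlation. HIF1A, EPAS1, VIM, DCN and the liver markers were named outside that rule, after their values were seen. Some genes of these lists are not reported here by name. The members and lists were chosen with earlier results of these data known. Alternatives covered background correction, scaling, filters, outlier spots, slide, replicate number, samples in the fit, array weights, the value table, the probe of a gene and each array left out; leaving out 2 arrays that stood apart and 3 with placental lactogen was chosen after seeing the data. Probes were named by the array's annotation, and neighbouring genes come from RefSeq (ARS-UI_Ramb_v3.0).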

Additional observations from a re-analysis of the deposited data

Results flagged for a closer look

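In 51 groups of 4 arrays, 1 array was set against the other 3 by its gap to the nearest of them over the group's range. Gap and range were taken on log2 signal, while the levels below are scaled signal. An array lay beyond Dixon's critical value of 0.829 in 5 groups, and chance alone marks about 1 in 20 groups. IGF1 in hypoxia ketamine replicate 1, at 59.54, was far below the rest of its group (ratio 0.835). IGF1 in normoxia ketamine replicate 1, at 161.6, was far above its group (0.924). IGFBP1 probe A_70_P069081 in normoxia ketamine replicate 3, at 41.57, was far above its group (0.881). IGF2 probe A_70_P016796 in hypoxia vehicle replicate 4, at 27617.2, was far below its group (0.85). IGFBP5 probe A_70_P041811 in normoxia ketamine replicate 2, at 18.63, was far below its group (0.969), where the probe shifted by 1 base read 1941.

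The hypoxia difference of IGF2 probe A_70_P016796 differed between ketamine-treated and vehicle-treated fetuses by 0.606 on the log2 scale in limma's interaction test, which passed before adjustment (adjusted p = 0.992), and by 0.429, which did not pass, without the 3 arrays that held placental lactogen.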

How the results depend on the processing

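No IGF gene's difference that was called in the main fit changed sign under any alternative run. Hypoxia against normoxia called 2 of 10 genes in the ketamine arm, and leaving out single arrays kept it at 2. There it called 1 with normexp or without the 3 arrays that held placental lactogen, 0 within slide 2 and 3 with the mean of a gene's probes. In the vehicle arm it called 2 genes, 1 with normexp or within slide 1, and 1 to 3 with 1 array left out, hypoxia replicates 1 and 3 and normoxia replicates 2 and 3 each taking it to 1. Over both arms it called 3 genes, 2 within either slide, without the 2 arrays that stood apart or with the mean of a gene's probes, 4 with slide as a block or outlier spots kept, and 3 to 4 with 1 array left out. Ketamine against vehicle called 0 genes after hypoxia, 1 within slide 1, and 0 to 1 with 1 array left out. After normoxia it called 0 genes, 1 with slide as a block, within slide 1, with array weights, from the deposited table or with the mean of a gene's probes, and 0 to 2 with 1 array left out. The gene that the mean of probes added here, and in the ketamine arm of the hypoxia comparison, was IGF2. In normoxia ketamine replicate 1 that mean is the dimmer IGF2 probe alone, as the brighter spot was left out. Those calls therefore set unlike probes against each other. The interaction called 0 genes, 1 within slide 1, and 0 to 1 with 1 array left out. The exact permutation p of IGF1 in the ketamine arm was 0.4286 with normexp, and that of IGFBP1 there was 0.02857 with normexp and 0.02857 to 0.1143 with 1 array left out. In the vehicle arm IGF1 gave an exact permutation p of 0.06667 to 0.1 with 1 of its arrays left out, a design that cannot reach 0.05. The cause of the other changes was not tested. Over all probes, 211 passed the adjusted threshold over both arms, against 19 with normexp, 78 with the replicate block, 122 without a filter, 441 with array weights, 86 without the 2 arrays that stood apart and 5 without the 3 that held placental lactogen. Replicate numbers were not treated as pairs in the main fit. Same-number arrays of different groups correlated from -0.29 to 0.37 after group means were removed (median 0.04, 21 pairs). Other pairs gave -0.28 to 0.29 (median 0, 63 pairs), and these correlations cannot exclude a pairing. With the replicate block the calls stayed at 2, 2, 3, 0, 0 and 0, with IGF1 at -0.69 in the ketamine arm and -1.12 in the vehicle arm. IGFBP1 levels in normoxia lie near background, which limits its fold change.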
